A study of Harpegnathos saltator with 22 samples.

Results

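AGO1 (LOC105181658), AGO2 (LOC105180644) and AGO3 (LOC105180460) are the Argonaute genes of the ant Harpegnathos saltator that carry these symbols in RefSeq. They were chosen by gene ID, with earlier results of these data known, and are 3 of the 13693 genes in the authors' deposited table. In this species an adult worker can become a gamergate, a mated worker with active ovaries that lays eggs. The study took ovaries from single ants 24 h after siRNA had been injected into the head and sequenced their polyadenylated RNA. Mature workers formed a group of 4 ants with Kr-h1 siRNA and a group of 5 with GFP siRNA, and mature gamergates a group of 7 with Kr-h1 siRNA and a group of 6 with GFP siRNA. Kr-h1 encodes a transcription factor that responds to juvenile hormone, and GFP siRNA, which has no target in the ant, was the control. All 22 ants thus received siRNA, and no uninjected ants are among the groups.

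Argonaute proteins hold a small RNA and use its sequence to find the transcripts they silence. As worked out in Drosophila, AGO1 mainly carries microRNAs and represses messenger RNAs through GW182 and deadenylation. AGO2 mainly carries siRNAs cut by Dicer-2 from double-stranded RNA and slices viral and transposon transcripts. AGO3 belongs to the PIWI branch of the family, which works in the germline, where it amplifies piRNAs against transposons together with Aubergine. Injected siRNAs, such as those against Kr-h1 and GFP, enter the same siRNA branch.

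For each gene and comparison the deposited table holds an average normalized count with a log2 fold change and its p-values, but no value per ant, so the depth of each library and the spread between ants are unknown. The levels given here for the 4 groups are group means solved from those mean counts, the fold changes and the group sizes, on the scale of the caste comparison. The means of pathway genes given further on are on the scale of the comparison they are given for. None is divided by transcript length, so levels are compared between groups for 1 gene and never between genes. Each SE was recovered from the deposited fold change and p-value, and each interval is that estimate with a 95% normal range. A gene was called when its adjusted p in the deposited table was under 0.05. The 3 Argonaute genes have an adjusted p in all 3 comparisons.

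AGO2 transcripts were less abundant in worker than in gamergate ovaries, and this was the 1 Argonaute difference that passed the test. After GFP siRNA, AGO2 had a mean normalized count of 5813 in workers, against 8880 in gamergates. The log2 fold change, workers over gamergates, was -0.61 in the authors' deposited table (recovered SE 0.10, adjusted p = 5.91e-09). The worker level was thus 0.655 times the gamergate level, with an interval of 0.572 to 0.749. The submitters' notes list DESeq2 among their tools but do not give its role. Between castes, differences were common: 53.2% of the 12338 genes tested were called in either direction and 26% were lower in workers. By size, AGO2 was in the middle of the table, since 47.2% of the tested genes differed by more on the log2 scale. By precision it was near the top, since 5.98% of the tested genes had a smaller SE and 13.6% a smaller adjusted p.

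Kr-h1 siRNA gave no detectable change of AGO2 in either caste. Its level was 8521 in Kr-h1 gamergates, against 8880 in GFP gamergates, and 6407 in Kr-h1 workers, against 5813 in GFP workers. The log2 fold changes in the authors' deposited table were -0.06 in gamergates (recovered SE 0.09, adjusted p = 0.674) and 0.14 in workers (recovered SE 0.18, adjusted p = 0.654). In gamergates the interval of the fold, Kr-h1 over GFP, was 0.851 to 1.08, and in workers it was 0.867 to 1.40. The gamergate value is close to 0 and became 0.0041 with the abundance trend removed, that is, with the running median fold change of genes of similar mean count subtracted. Ordered by level, the GFP and the Kr-h1 gamergates stood highest, followed by the Kr-h1 and the GFP workers, and within each caste the neighbours did not differ beyond their error.

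**Figure D1:**
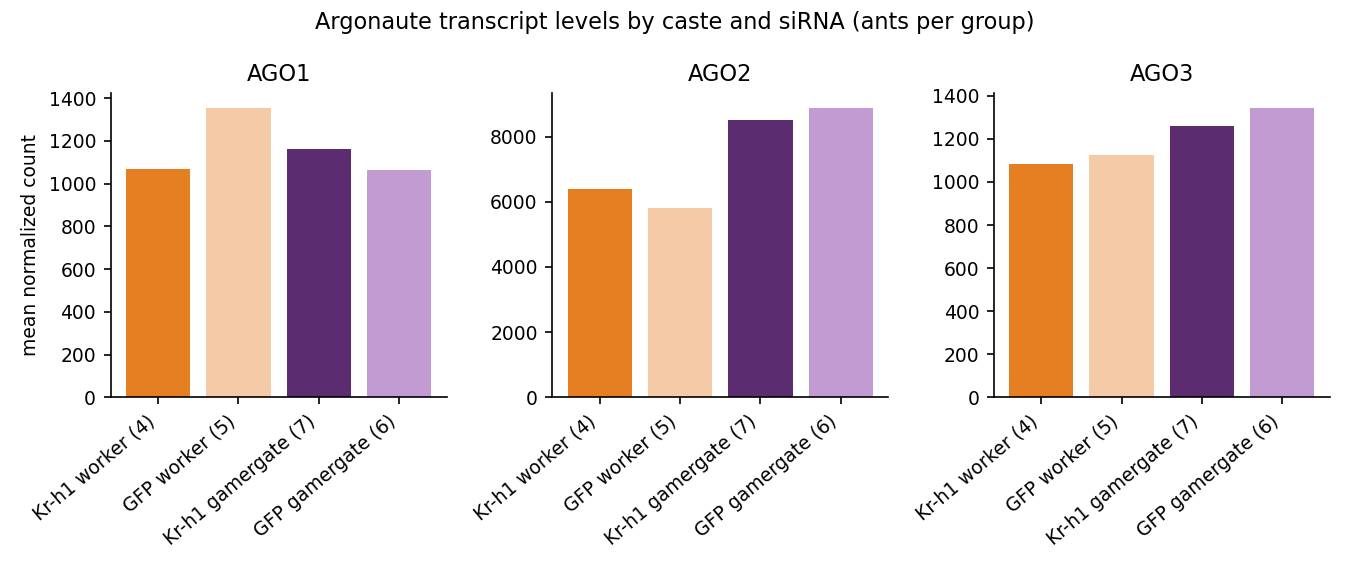
Mean normalized count (y axis, from 0, a separate scale for each gene) of AGO1, AGO2 and AGO3 in the ovaries of 4 groups, with the number of ants in parentheses. Bars are group means solved from the authors' deposited table, and no error per group could be drawn. AGO2 is at 6407 and 5813 in the Kr-h1 and GFP worker groups and at 8521 and 8880 in the Kr-h1 and GFP gamergate groups, while AGO1 is highest in the GFP workers (1354).

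Of the 3 genes, AGO1 had the largest fold changes in size after Kr-h1 siRNA in each caste, positive in gamergates and negative in workers, but neither value passed the test. It had a level of 1161 in Kr-h1 gamergates, against 1064 in GFP gamergates, and of 1068 in Kr-h1 workers, against 1354 in GFP workers. The authors' deposited table has log2 fold changes of 0.13 in gamergates (recovered SE 0.08, adjusted p = 0.255) and -0.34 in workers (recovered SE 0.21, adjusted p = 0.307). The intervals of the fold, Kr-h1 over GFP, were 0.981 to 1.21 in gamergates and 0.596 to 1.04 in workers, so a worker level of AGO1 about as low as 0.596 times the control is within the error.

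The difference between those 2 AGO1 responses, gamergates minus workers, was 0.47 on the log2 scale (SE 0.22, interval 0.04 to 0.90). Its unadjusted p was 0.0338 in a z test, and its p adjusted over the 10453 genes tested in both castes was 0.141, so it did not pass. In that test 10.5% of the genes were called. For AGO2 the same difference was -0.20 (SE 0.20, adjusted p = 0.523), and for AGO3 it was -0.04 (SE 0.19, adjusted p = 0.918).

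Between castes after GFP siRNA, AGO1 had a log2 fold change of 0.35, workers over gamergates, in the authors' deposited table (recovered SE 0.17). The deposited p of 0.0413 became 0.0734 after adjustment, so AGO1 was not called, and 56.4% of the genes tested had a smaller adjusted p. With the abundance trend removed, its value was 0.47 and it passed (adjusted p = 0.0147), and over the 3 alternative settings the adjusted p ranged between 0.0147 and 0.0760. By level, the order of the AGO1 groups was GFP workers, Kr-h1 gamergates, Kr-h1 workers and GFP gamergates. Kr-h1 workers (1068) and GFP gamergates (1064) were nearly equal. Their order reversed (991 and 1089) with the control levels solved from the knockdown comparisons. None of the 3 comparisons in the table separated any of these groups for AGO1 at an adjusted p under 0.05.

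AGO3 stood close to its control level after Kr-h1 siRNA in both castes, without a call. Its level was 1260 in Kr-h1 gamergates, against 1344 in GFP gamergates, and 1083 in Kr-h1 workers, against 1125 in GFP workers. The log2 fold changes in the authors' deposited table were -0.09 in gamergates (recovered SE 0.09, adjusted p = 0.505) and -0.05 in workers (recovered SE 0.17, adjusted p = 0.869). The intervals of the fold were 0.828 to 1.06 and 0.764 to 1.21.

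Between castes after GFP siRNA, AGO3 stood at -0.26, workers over gamergates, in the authors' deposited table (recovered SE 0.13). The deposited p was 0.0475 and the adjusted p 0.0832, so AGO3 was not called, and its value was -0.11 (adjusted p = 0.507) with the abundance trend removed. Both gamergate groups had a higher AGO3 level than both worker groups, without a call.

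**Figure D2:**
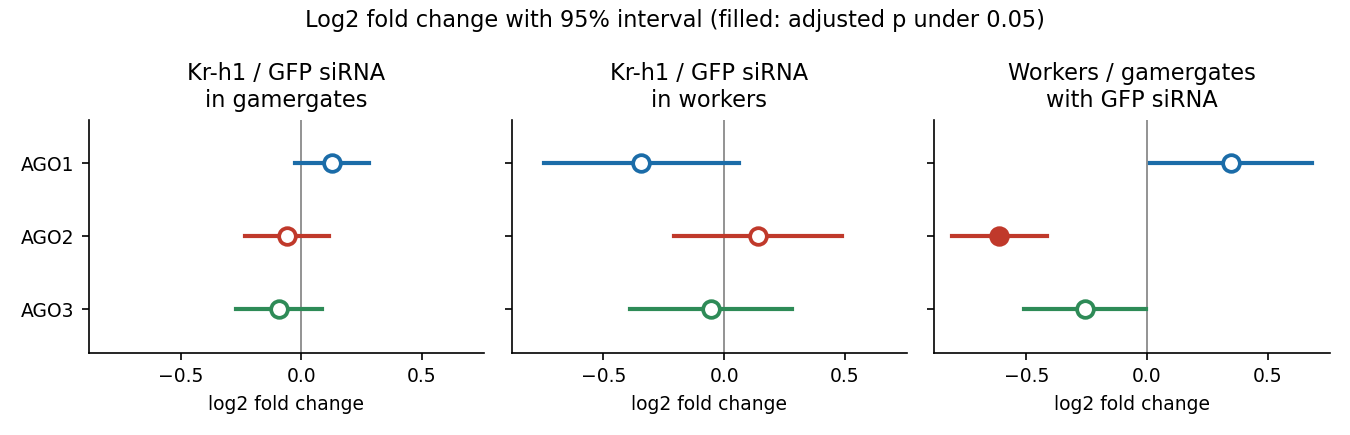
Log2 fold change (x axis) of the Argonaute genes (rows) in the 3 comparisons of the authors' deposited table, with the 95% interval from the recovered SE as a line. A filled point has an adjusted p under 0.05, which is AGO2 between castes (-0.61) and no other, and the intervals are wider in workers than in gamergates.

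For the knockdown comparisons the share of all genes called is the yardstick for 0 of 3 Argonaute calls. It was 14.8% of 11145 genes in gamergates and 4.92% of 10577 genes in workers. With 3 genes, 0 calls is a count near those shares and says nothing particular about the family. The Argonaute fold changes were small beside those of other genes in gamergates, where 67.6%, 84.2% and 75.9% of the genes tested had a larger change in size than AGO1, AGO2 and AGO3. In workers 39.2% had a larger change than AGO1, 71.1% a larger one than AGO2 and 88.6% a larger one than AGO3.

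**Figure D3:**
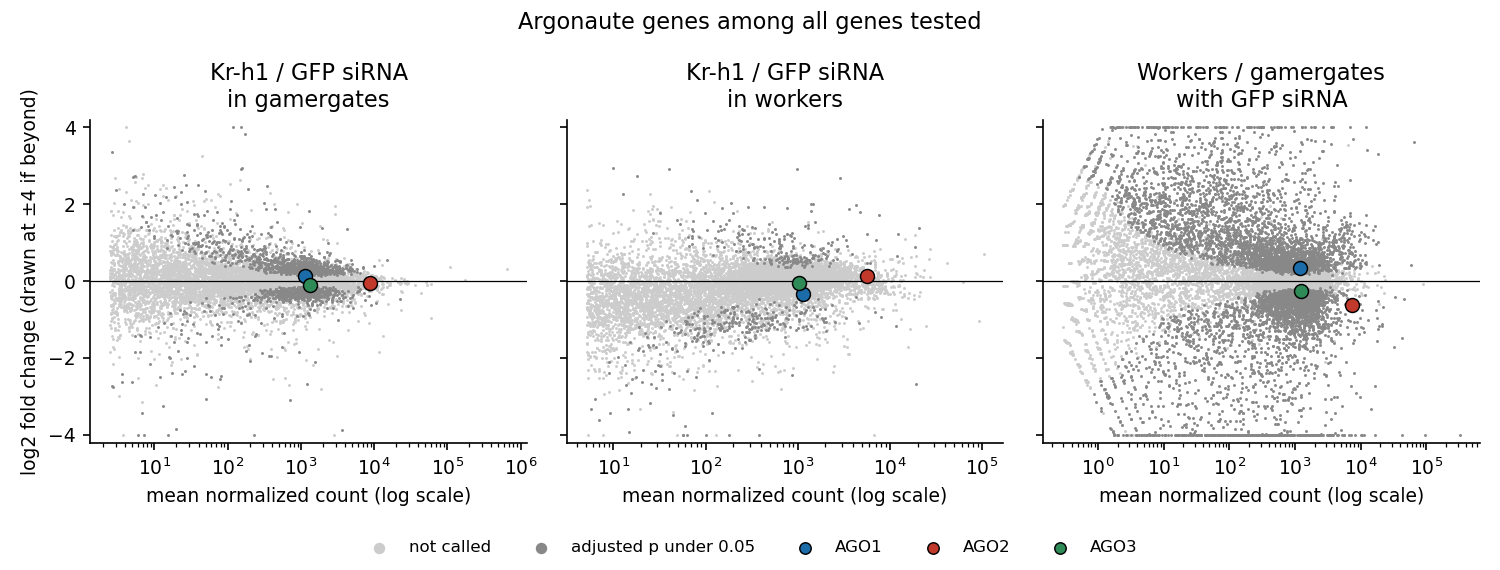
Log2 fold change (y axis, drawn at the edge where larger than ±4) against mean normalized count (log x axis) for all genes with an adjusted p in the authors' deposited table, with called genes in dark grey and the Argonaute genes coloured. AGO2 lies at the high-count side in all 3 panels, and between castes it sits among the called genes below 0.

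Transcript length cancels when the ratio of 2 Argonaute genes is set between castes. The ratio of AGO1 to AGO2 counts was 1.94 times as high in GFP workers as in GFP gamergates, and the ratio of AGO3 to AGO2 counts 1.28 times as high. The caste intervals of AGO1 (0.01 to 0.68 on the log2 scale) and AGO2 (-0.81 to -0.42) did not overlap, whereas those of AGO3 (-0.51 to -0.0028) and AGO2 did. These intervals are not adjusted for the number of genes, their overlap is no test of a ratio, and AGO1 and AGO3 were not called. The ratios themselves were not tested, because the covariance of the genes between ants is unknown.

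Kr-h1 workers and Kr-h1 gamergates were not compared in the deposited table. From its other comparisons, the log2 difference, Kr-h1 workers over Kr-h1 gamergates, comes to -0.12 for AGO1, -0.41 for AGO2 and -0.22 for AGO3. The corresponding values after GFP siRNA were 0.35, -0.61 and -0.26 in the authors' deposited table. These Kr-h1 values carry no error of their own and were not tested. The change of each relative to GFP is the difference of knockdown responses given above, which passed for none of the 3.

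Kr-h1 itself (LOC112589664), the target of the siRNA injected into the head, was not called in the ovary. The authors' deposited table gives it a log2 fold change, Kr-h1 over GFP siRNA, of 0.26 in gamergates (adjusted p = 0.734, recovered SE 0.47) and -0.48 in workers (adjusted p = 0.706, recovered SE 0.70). Kr-h1 averaged 42.3 and 38.7 normalized counts in those comparisons.

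Among the markers searched for by symbol, 7 of 15 germline and 8 of 11 follicle cell genes were found, none with a mean of 0. Their counts between castes are read against the 27.2% of all genes tested that were called higher in workers and the 26% called lower. In GFP workers against GFP gamergates, 6 of 7 germline markers were called higher and 1 lower (median log2 0.58), and their summed mean counts were 25454 in workers and 16493 in gamergates. Of 7 follicle cell markers tested, 1 was higher and 3 lower (median -1.43), with sums over the 8 found of 3427 in workers and 16387 in gamergates. Of 9 muscle markers, 8 were higher (median 2.43), with sums of 25102 in workers and 5100 in gamergates. Of 5 fat body markers, 4 were higher (median 1.56), with sums of 8392 in workers and 1062 in gamergates. Of 3 haemocyte markers, 1 was higher and 2 were lower (median -0.44), with sums of 1110 in workers and 2289 in gamergates. The part of these shifts in the Argonaute values was not tested, and in a whole ovary fewer cells of a type and less RNA per cell cannot be told apart.

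After Kr-h1 siRNA fewer markers were called, as were fewer of all genes tested. Of all genes, 8.95% were called higher and 5.9% lower in gamergates, and 2.23% higher and 2.69% lower in workers. In gamergates, 2 of 7 germline, 2 of 5 fat body and 4 of 9 muscle markers were called higher and 0 lower, 1 of 6 follicle cell markers was higher and 2 were lower, and 0 of 3 haemocyte markers were called. In workers, 4 of 8 follicle cell, 1 of 5 fat body and 1 of 3 haemocyte markers were called lower, none of the 5 lists had a member called higher, and 0 of 7 germline and 0 of 9 muscle markers were called. In Kr-h1 against GFP gamergates the median log2 fold change was 0.32 for germline, -0.48 for follicle cell, 1.38 for fat body, 0.44 for muscle and -0.24 for haemocyte markers. In Kr-h1 against GFP workers it was -0.05 for germline, -1.06 for follicle cell, -1.05 for fat body, -1.01 for muscle and -0.94 for haemocyte markers. The gamergate follicle cell median leaves out yellow-g (-7.54) and yellow-g2 (-3.59), which had no p-value there. The worker median includes both, so these medians do not cover the same genes. Summed follicle cell counts over the 8 found were 4806 in Kr-h1 and 16796 in GFP gamergates, and 2938 in Kr-h1 and 3191 in GFP workers. Summed muscle counts were 6951 in Kr-h1 and 5225 in GFP gamergates, and 11730 in Kr-h1 and 23338 in GFP workers. By sign, AGO1, like the germline, muscle and fat body medians, was positive in gamergates, negative in workers and positive between castes. AGO3, like the follicle cell and haemocyte medians, was negative in all 3 comparisons, and the signs of AGO2 were those of no marker list. None of the AGO1 and AGO3 values was called, and in workers 3 germline markers were positive and 4 negative. Whether the cell makeup has a part in the Argonaute values was not tested.

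**Figure D4:**
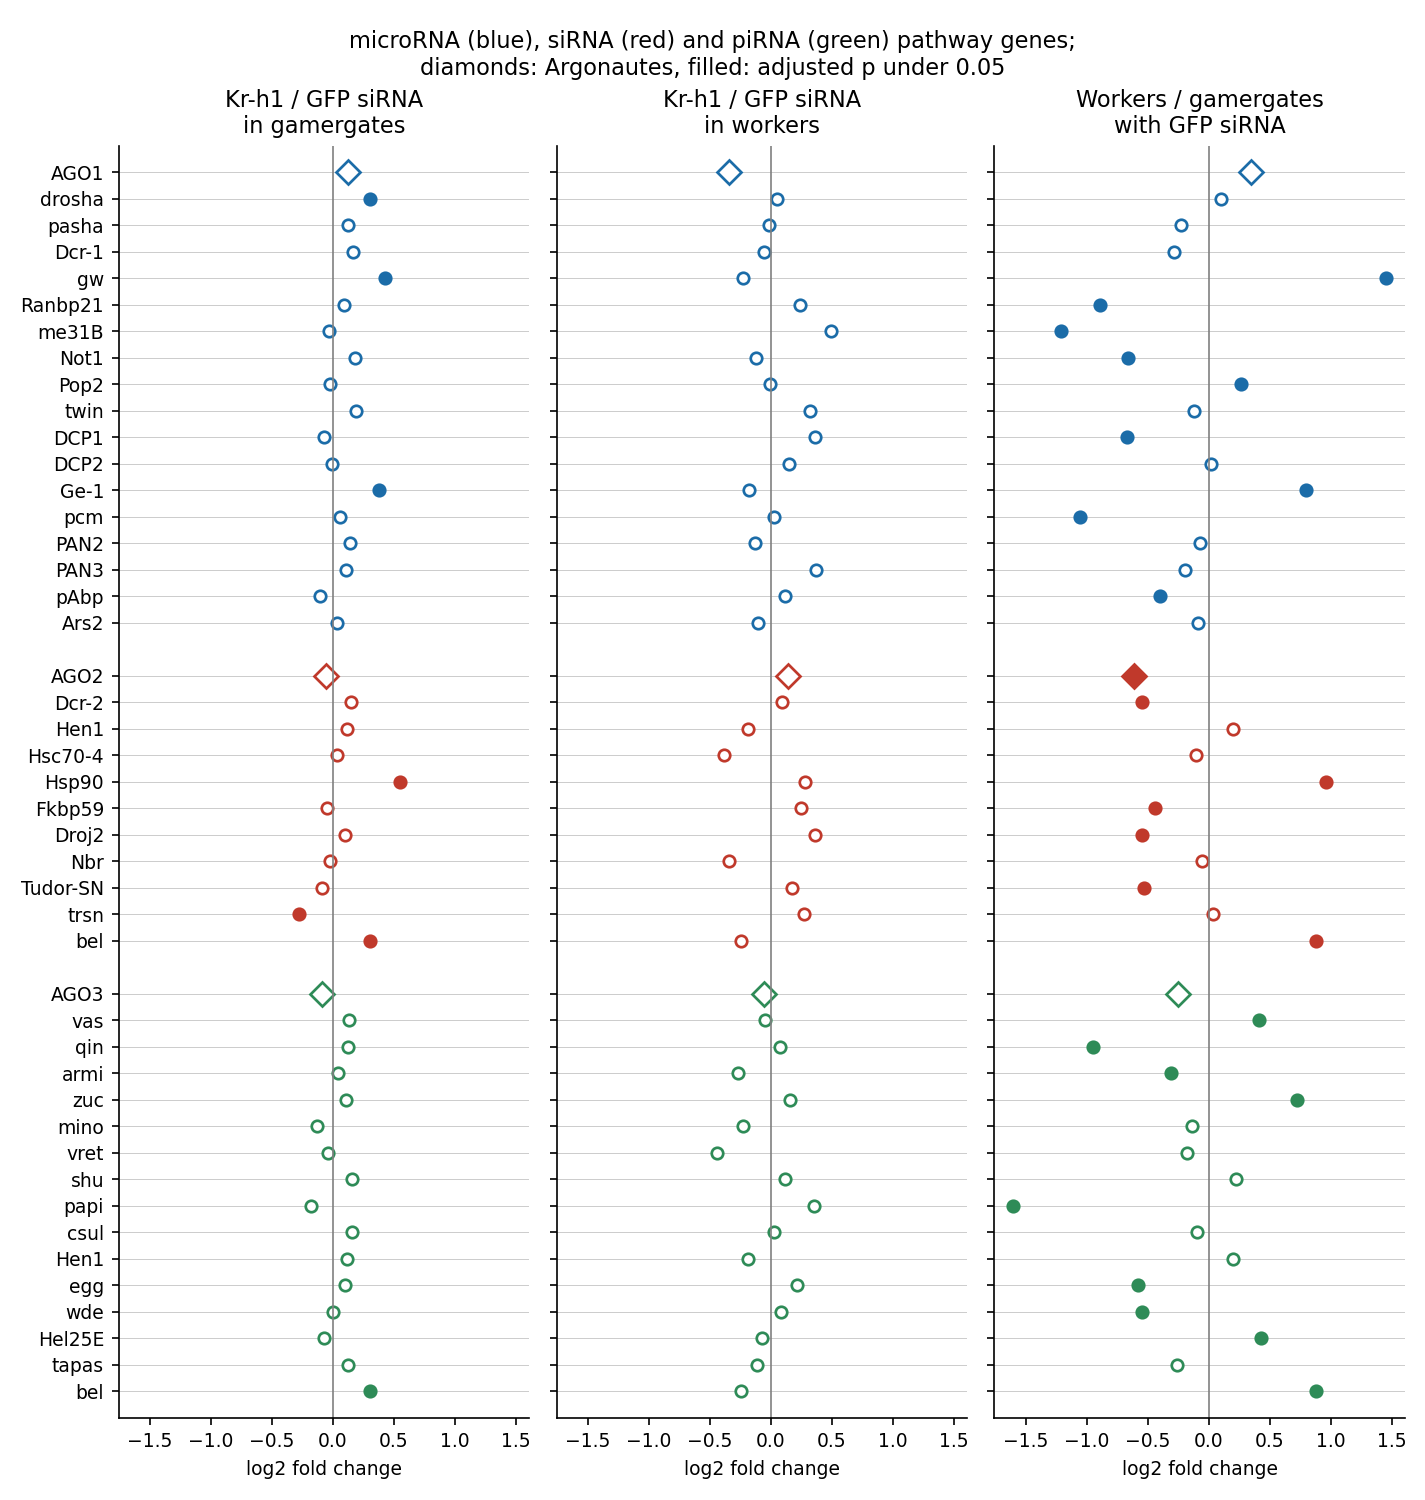
Log2 fold change (x axis) of the microRNA, siRNA and piRNA pathway genes (rows; Hen1 and bel stand in the siRNA and piRNA lists) and of the Argonaute gene of each pathway (diamonds), in the 3 comparisons of the authors' deposited table. Filled symbols have an adjusted p under 0.05: few in gamergates, 0 in workers, and calls in both directions between castes in every list.

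The other genes of the siRNA pathway were looked up by symbol, and 10 of 12 were found. Between castes, 2 were called higher in workers and 4 lower, with a median log2 fold change of -0.08 against 0.05 over all genes tested, of which 27.2% were called higher and 26% lower. Dcr-2, the Dicer that makes siRNAs from long double-stranded RNA, was lower together with AGO2. It had solved means of 1289 in GFP workers and 1882 in GFP gamergates, and a log2 fold change of -0.55 in the authors' deposited table (recovered SE 0.10, adjusted p = 7.59e-07). The co-chaperone genes Droj2, which in flies helps load AGO2, and Fkbp59 were lower at -0.55 and -0.44 in the deposited table. Tudor-SN, a nuclease found in silencing complexes, was lower at -0.53 in that table.

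Hsp90, the chaperone that opens Argonaute proteins for loading, was higher in workers (0.96, adjusted p = 1.08e-04 in the authors' deposited table), as was the RNA helicase gene bel at 0.88. Hen1, the methyltransferase that protects siRNAs and piRNAs at their 3′ end, was not called (0.20, adjusted p = 0.166 in that table), but passed with the abundance trend removed (0.30, adjusted p = 0.0309).

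In gamergates, 2 siRNA pathway genes rose after Kr-h1 siRNA and 1 fell, and Dcr-2 was not among them (0.15, adjusted p = 0.112 in the authors' deposited table). Those that rose were Hsp90 (0.55, adjusted p = 6.39e-05) and bel (0.30, adjusted p = 0.0205), and trsn, a subunit of the nuclease C3PO that helps activate the AGO2 complex, fell (-0.28, adjusted p = 0.0335 in the deposited table). The share of all genes called higher in gamergates was 8.95%, and that called lower 5.9%. In workers, 0 of 10 passed in the authors' deposited table, where 2.23% of all genes tested were called higher and 2.69% lower. Dcr-2 stood there at 0.09 and Hen1 at -0.19.

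For the microRNA pathway, 17 of 18 genes were found. Between castes, 3 were higher in workers and 6 lower (median -0.19), a share called close to the 53.2% of all genes tested. The processing enzymes that make microRNAs were not called. These are drosha, which cuts the primary transcript in the nucleus (0.10), its partner pasha (-0.23, adjusted p = 0.0737) and Dcr-1, which cuts the hairpin (-0.29, adjusted p = 0.0568 in the authors' deposited table). With the abundance trend removed, pasha passed at -0.32 (adjusted p = 0.0120).

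Of the genes that act with or after AGO1, some were called higher in workers, some lower, and twin, DCP2, PAN2 and PAN3 were not called. The gene gw, for GW182, the scaffold that joins AGO1 to deadenylation, was higher in workers, with solved means of 4690 in GFP workers and 1712 in GFP gamergates (log2 1.45, adjusted p = 5.87e-10 in the authors' deposited table). Ge-1, a decapping scaffold, was also higher (0.80, adjusted p = 2.46e-06 in the deposited table). The translational repressor me31B (-1.21), the exonuclease pcm (-1.06) and the decapping activator DCP1 (-0.67) were lower there, as was Ranbp21 (-0.89), the homologue of exportin-5, which acts upstream of AGO1. The deadenylase Pop2 was the remaining higher gene, and the scaffold Not1 and the poly(A)-binding protein gene pAbp the remaining lower ones.

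In gamergates after Kr-h1 siRNA, 3 microRNA pathway genes rose and 0 fell, with a median of 0.11 against 0.0014 over all genes tested, of which 8.95% were called higher and 5.9% lower. They were gw (solved means 2356 in Kr-h1 and 1754 in GFP gamergates), drosha (1249 in Kr-h1 and 1015 in GFP gamergates) and Ge-1 (1063 in Kr-h1 and 818 in GFP gamergates, adjusted p = 0.0389 in the authors' deposited table). AGO1, at 0.13, and the uncalled pasha (0.13) and Dcr-1 (0.17) were positive as well in that table. In workers, 0 of 17 passed, where 4.92% of all genes were called, and gw stood at -0.23, drosha at 0.05, pasha at -0.01 and Dcr-1 at -0.06 in the authors' deposited table. With the abundance trend removed, drosha became negative there and pasha positive. A difference between castes was not called for gw (0.66, SE 0.34, adjusted p = 0.179).

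For the piRNA pathway, 15 of 35 genes were found by symbol, and piwi, aub and spn-E were not among them. Between castes, 4 were higher in workers and 5 lower (median -0.14), where 27.2% of all genes were called higher and 26% lower. The largest difference in this list was in papi, a Tudor-domain protein that binds PIWI proteins at the mitochondrial surface. It had solved means of 3601 in GFP workers and 10955 in GFP gamergates, and a log2 fold change of -1.60 in the authors' deposited table (recovered SE 0.10, adjusted p = 4.47e-52). The ping-pong factor qin was at -0.95 (adjusted p = 3.49e-14), the helicase armi at -0.31 (adjusted p = 8.02e-04), and the histone methyltransferase egg and its cofactor wde at -0.58 and -0.54 in the deposited table.

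Higher in workers were zuc, the nuclease that forms piRNA ends (0.72, adjusted p = 1.25e-04 in the authors' deposited table), vas, Hel25E and bel. The germline helicase gene vas had solved means of 8195 in GFP workers and 6164 in GFP gamergates (log2 0.41, adjusted p = 0.00275 in the deposited table), a call that was lost with the abundance trend removed (0.26, adjusted p = 0.0698). AGO3 itself was uncalled, at -0.26 in that table.

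After Kr-h1 siRNA, bel was the 1 piRNA pathway gene of 15 called in gamergates (list median 0.11), where 14.8% of all genes were called. In workers, where 4.92% of all genes were called, 0 of 15 passed (median -0.05 against 0.01 over all genes tested). In gamergates 10 of the 15 values were positive and 5 negative, and the uncalled genes vas, armi, zuc and Hen1 stood at 0.13, 0.04, 0.11 and 0.11 in the authors' deposited table. In workers they stood at -0.05, -0.27, 0.15 and -0.19 in that table.

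For each Argonaute gene, the genes with the most similar pattern were taken as those with the smallest Euclidean distance over the 3 log2 fold changes, among 3658 genes with a symbol whose mean count reached 50 in every comparison. For AGO1 these were ZnT63C, a zinc transporter (distance 0.04), the chloride channel ClC-b (0.07) and the adaptor Shc (0.07). For AGO2 they were Daxx (0.05), Hmgs of the mevalonate pathway (0.06) and the splicing factor Prp3 (0.06). For AGO3 they were the autophagy enzyme Atg7 (0.03), the sphingolipid enzyme Spt-I (0.05) and the nucleoside transporter Ent1 (0.05). All these distances are below the smallest recovered SE of the Argonaute fold changes (0.078), so the order of the neighbours is within the error. Within a distance of 0.1 lay 10, 15 and 13 genes for AGO1, AGO2 and AGO3, and the 3 fold changes share control ants. With the abundance trend removed, the distances to AGO2 of Daxx, Hmgs and Prp3 were 0.29, 0.27 and 0.32, and that of Ent1 to AGO3 was 0.41. The other distances moved by less than the smallest recovered SE of their Argonaute gene.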

How the data were processed

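Polyadenylated RNA from the ovaries of 22 single ants was sequenced with strand kept by dUTP marking, per the labels' protocols. The submitters' processing notes list the tools bcl2fastq, STAR, featureCounts and DESeq2 and give neither version nor role. The build, annotation, counting strand and model were not given in the sources used here. Caste, siRNA and replicate number come from the labels' titles. The protocol text spells the control GRP where titles and knockdown fields have GFP.

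The authors deposited 1 table with mean normalized counts, log2 fold changes, p-values and adjusted p-values for 3 comparisons. It holds no values per ant (0 further value columns). Depth is unknown, and no count model was run. Recomputing the Benjamini-Hochberg adjustment gave the deposited adjusted p to within 0.0018. Signs were checked by predicting each knockdown mean count from the caste comparison. The residual SD on the log2 scale was 0.0014 (gamergates) and 0.0084 (workers) as read, and 0.46 and 0.55 with the sign reversed. Positive values mean higher with Kr-h1 siRNA or in workers.

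The SE was recovered by dividing the fold change by the normal quantile that its p-value implies, as for a Wald test. The knockdown responses were compared by a z test with Benjamini-Hochberg adjustment, after the code had been tested on simulated data. The abundance trend was a running median of fold change by mean count over 501 genes. The alternatives also adjusted over other sets of genes, took SEs from t quantiles, and solved control levels from the knockdown comparisons. Symbols came from RefSeq assembly Hsal_v8.6 (13681 of 13693 IDs matched, 4117 with a descriptive symbol). The core partners loqs, r2d2, piwi, aub and spn-E were not among the genes found by symbol. Named were the Argonaute genes, the core pathway partners found, up to 6 called genes per list and comparison by adjusted p, and 3 nearest genes for each Argonaute. Pop2, Not1, pAbp and Hel25E, the remaining called genes, were named outside that rule after their values were seen. The members and lists were chosen with earlier results of these data known. Calculations used Python 3.11.15, numpy 2.4.6, pandas 2.3.3 and scipy 1.17.1.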

Additional observations from a re-analysis of the deposited data

Results flagged for a closer look

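Within the small RNA lists, 2 genes responded differently to Kr-h1 siRNA in the 2 castes by the z test of the difference. The lists held 17, 10 and 15 genes, with Hen1 and bel in 2 of them. That share is no larger than the 10.5% called among all 10453 genes tested. For trsn the log2 fold change in gamergates minus that in workers was -0.55 (SE 0.19, adjusted p = 0.0414), from -0.28 in gamergates and 0.27 in workers in the authors' deposited table. For DCP1 the difference was -0.44 (SE 0.15, adjusted p = 0.0441), from -0.08 in gamergates and 0.36 in workers in that table. Neither difference passed once the abundance trend was removed (-0.42, adjusted p = 0.142, and -0.31, adjusted p = 0.182).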

How the results depend on the processing

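AGO2 kept its call between castes under the 3 alternatives (log2 -0.75 to -0.61, adjusted p between 7.88e-13 and 6.10e-09). Removing the abundance trend gave AGO1 a call between castes (0.47) and turned the sign of the uncalled AGO2 value in gamergates (0.0041) and of the uncalled AGO3 difference between knockdown responses (0.11). It also turned the uncalled values of me31B in gamergates (0.039), of pcm (-0.12), drosha (-0.088), Dcr-2 (-0.025), qin (-0.024) and pasha (0.0084) in workers, of Kr-h1 between castes (-0.083) and of the Pop2 difference (0.13). The cause was not tested. The other Argonaute fold changes and differences kept their direction and stayed uncalled under every alternative run. The numbers of list members called moved by at most 1. With SEs from t quantiles, the differences between knockdown responses of Ge-1, bel and me31B passed (adjusted p = 0.0383, 0.0364 and 0.0462), and that of Ge-1 also passed with the abundance trend removed (0.68, adjusted p = 0.0457). SEs from t quantiles are smaller than the main ones, while the z test still used the normal distribution. That setting is therefore less strict than the main one and makes no allowance for the small groups. With the control levels solved from the knockdown comparisons, AGO2 stood at 5951 in Kr-h1 and 5399 in GFP workers, where all worker levels shift by a median of -0.11 on the log2 scale through the authors' scaling, and the other Argonaute levels moved by less than the recovered SE of the caste fold change. No paired analysis was possible because the deposited table holds no values per ant, and for the same reason leaving out single ants was not run. The median recovered SE was 0.13 in the gamergate and 0.21 in the worker knockdown comparison.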
